A study of Homo sapiens with 12 samples.

Results

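The steady-state levels of 372 microRNAs (miRNAs) were compared between AGO2-sh72 treated and un-treated My5.CRBN cells, with all 372 miRNA assays of the PCR array taken and 2 of the 12 arrays of the study used for the comparison. The study asked whether the level of AGO2, found there as a binding partner of CRBN, is tied to the levels of miRNAs in multiple myeloma cells. The arrays cover un-treated, AGO2-sh72, AGO2 cDNA and lenalidomide samples of both the My5.LV and the My5.CRBN line. My5.CRBN cells are OCI-My5 myeloma cells infected with a lentivirus that carries His-tagged CRBN cDNA and GFP. My5.LV cells carry the vector alone. The AGO2-sh72 treated cells were in addition infected with lentivirus encoding an shRNA against AGO2 and selected with puromycin. Per the figure legends of the study, RNA was taken after 3 days of this treatment. The control is the un-treated My5.CRBN array, so it carries the CRBN virus but neither a second virus nor puromycin, and the effects of infection, selection, cell death and loss of AGO2 cannot be told apart here. The array holds no assay for AGO2 mRNA, and the knockdown itself was not checked with these values. There was 1 array per condition, so no value below has a replicate check and no test was made.

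miRNAs are short RNAs cut by Drosha and Dicer from a hairpin precursor, which yields a duplex of a 5p and a 3p strand. An Argonaute protein takes up the duplex, keeps the guide strand and releases the other (passenger) strand, which is then degraded as a rule. AGO2 is the Argonaute protein that can also cut RNA, and a miRNA that is bound by Argonaute is protected from nucleases. The bases of the seed, near the 5′ end of the guide, set which messages are bound, so miRNAs with a common seed are grouped as a family.

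Mature sequences were taken from RefSeq (GRCh38.p14), which matched 330 of the 372 assays, while 42 had no match. Sequences are written 5′ to 3′ with the seed, bases 2 to 8, in capitals. The first set is shown since it holds the lowest median of the families with at least 3 assays, with miR-301a-3p far below its relatives.
miR-301a-3p: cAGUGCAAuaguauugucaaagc
miR-454-3p: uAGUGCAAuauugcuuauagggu
miR-130b-3p: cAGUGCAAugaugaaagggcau
The next sequences are those of single miRNAs with the largest differences in either direction.
miR-155-5p: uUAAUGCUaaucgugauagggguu
miR-744-5p: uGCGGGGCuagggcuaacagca
miR-410-3p: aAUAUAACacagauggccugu
The miRNAs of the next set have the same seed and differ at few other bases, yet some of their values lay far apart.
miR-18a-5p: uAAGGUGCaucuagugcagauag
miR-18b-5p: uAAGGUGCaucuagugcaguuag
miR-196a-5p: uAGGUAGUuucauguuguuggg
miR-196b-5p: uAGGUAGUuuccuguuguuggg
miR-103a-3p: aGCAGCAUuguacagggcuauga
miR-107: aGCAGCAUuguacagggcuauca
let-7a-5p: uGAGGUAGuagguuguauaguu
let-7b-5p: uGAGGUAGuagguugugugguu
miR-98-5p: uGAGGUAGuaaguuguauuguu
The last set gives both strands of hairpins whose 2 arms differed most in their response.
miR-191-5p: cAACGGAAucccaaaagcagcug
miR-191-3p: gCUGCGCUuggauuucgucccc
miR-181c-5p: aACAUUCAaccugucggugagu
miR-181c-3p: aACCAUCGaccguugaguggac
miR-223-3p: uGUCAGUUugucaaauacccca
miR-223-5p: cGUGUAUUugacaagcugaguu

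The values are threshold cycles (Ct), the PCR cycle at which a well crosses a fixed signal, so that levels fall as the Ct rises. Undetermined wells and those with a Ct above 35 were given the cap of 35, and the mean Ct of 6 small-RNA control wells of the array was subtracted. The log2 fold change is this normalized Ct on the un-treated array minus that on the AGO2-sh72 array, so a negative value stands for a lower level after AGO2-sh72. The mean of the control wells was 20.8 cycles on the un-treated and 20.4 on the AGO2-sh72 array, within the range of 18.7 to 21.9 over the 12 arrays. Against their own mean, the control wells gave log2 fold changes from -0.33 for SNORD72 to 0.45 for RNU6-2, with an SD of 0.30. This SD serves below as a yardstick. It was taken over 6 different RNAs at Ct 19.2 to 23.2, so it is not a spread between replicate wells and was not measured at higher Ct. The mean Ct of the reverse transcription control wells differed by -0.73 and that of the positive PCR control wells by -0.78 cycles between the AGO2-sh72 and the un-treated array, against -0.35 for the small-RNA control mean. With these wells as normalizer, more miRNAs were lower by 3 fold or more (93 with the reverse transcription and 102 with the positive PCR control, against 48). Under the cap on both arrays were 343 miRNAs, and 12 were at the cap on both and have no fold change.

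Between the arrays, 48 of the 372 miRNAs (12.9%) were lower after AGO2-sh72 by 3 fold or more, and 6 (1.61%) were higher to this extent. Of the 360 miRNAs with a fold change, 240 had a log2 value below 0, and 209 (58.1%) lay within 2 fold. The middle of their distribution ran from -1.23 at the 25th to 0.25 at the 75th percentile, around a median of -0.58. With the 12 miRNAs at the cap on both arrays, which all receive the shift of the control mean, the median was -0.52. The counts turn on the normalizer. With the global mean of the miRNAs in place of the control wells, the counts were 8 lower and 24 higher, and with RNU6 alone 104 were lower and 3 higher. Common to the control wells and 4 other normalizers were 8 lower miRNAs (miR-155-5p, miR-301a-3p, miR-223-3p, miR-744-5p, miR-186-5p, miR-184, miR-520g-3p and miR-107) and 3 higher ones (miR-410-3p, miR-802 and miR-191-3p). Since a normalizer moves all values together, the lower list is that of the global mean and the higher list that of RNU6. The normalizers are thus not separate checks. miR-520g-3p and miR-802 were each at the cap on 1 array.

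Abundant miRNAs had the lower values. When the miRNAs were classed by their Ct in un-treated My5.LV cells, an array outside the comparison, the 56 miRNAs under Ct 22 gave -1.19 as the median of their log2 fold changes, 54 of which were below 0. The median was -1.24 for the 26 miRNAs from Ct 22 to 24, -0.89 for the 45 from 24 to 26 and -0.56 for the 53 from 26 to 28. From Ct 28 to 30 it was -0.15, with 36 of 70 miRNAs below 0. The share that was lower by 3 fold or more was 21.4% under Ct 22 and 26.9% from 22 to 24, against 4.29% from 28 to 30. Of the 127 miRNAs under Ct 26, 11 were above 0. Of those 11, 3 (miR-191-3p, miR-425-3p and miR-93-3p) are the less abundant arm of a hairpin. miR-22-3p (0.29) and miR-373-5p (0.53) are the abundant arm, and for the rest the array holds no second arm. The difference of -1.04 between the medians of the class under Ct 22 and that of 28 to 30 is the same with each normalizer, since a normalizer moves all values together.

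**Figure D1:**
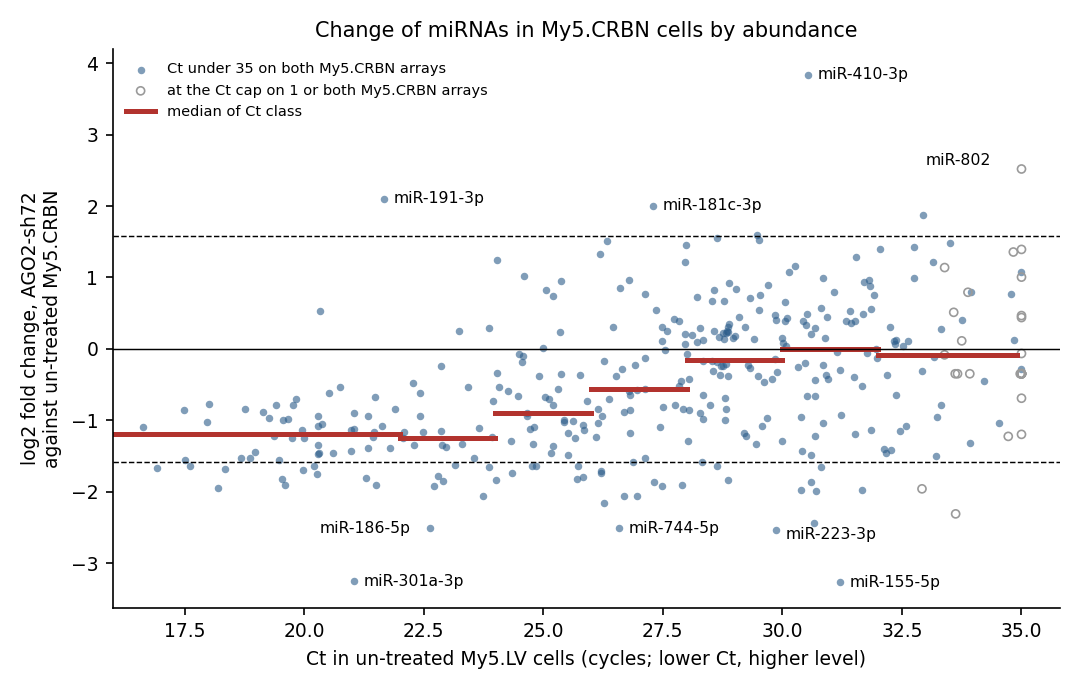
Each point is 1 of 372 miRNAs, with its Ct in un-treated My5.LV cells on the x axis (cycles) and its log2 fold change between AGO2-sh72 treated and un-treated My5.CRBN cells on the y axis. Red bars are the medians of the Ct classes, dashed lines mark 3 fold and open circles miRNAs at the Ct cap on a My5.CRBN array. The class medians lie near -1.2 at low Ct and near 0 above Ct 30.

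The lowest log2 fold changes among miRNAs under the cap on both arrays spanned miRNAs of high and of low level. miR-301a-3p, of the family that also holds miR-130 and miR-454, had a Ct of 21.5 on the un-treated and 24.4 on the AGO2-sh72 array, a 9.53-fold lower level (log2 fold change -3.25). Only the My5.LV array with AGO2-sh72 had a lower level of miR-301a-3p among the 12 arrays. Its gene MIR301A (chr17:59151136-59151221, GRCh38.p14, minus strand) lies within the span of SKA2, as does MIR454 (chr17:59137758-59137872, minus strand), and miR-454-3p had a log2 fold change of -1.90. miR-186-5p, from a hairpin within the span of ZRANB2, went from Ct 23.3 to 25.4 (-2.51), the lowest level of the 12 arrays.

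miR-155-5p, a product of the BIC transcript known from activated B cells and lymphomas, had the lowest log2 fold change of all (-3.27), but at a low level, with a Ct of 31.3 on the un-treated and 34.2 on the AGO2-sh72 array. Its Ct on the AGO2-sh72 array is in the range of cel-miR-39-3p, a worm miRNA assay present in 2 wells. These wells differed by 1.81 and 1.57 cycles within an array at Ct 33.0 to 34.8. Between the un-treated and the AGO2-sh72 array each well stayed close to its value (34.76 and 34.76, 32.95 and 33.19). The gaps within an array thus do not measure the spread of a fold change. miR-155-3p, the other arm of the hairpin (chr21:25573983-25574043, plus strand, within MIR155HG), had a log2 fold change of -1.23 and was named after its value was seen. miR-223-3p, the myeloid miRNA, was 5.82-fold lower at Ct 28.6 and 30.8. miR-744-5p, whose gene lies within the span of MAP2K4, was 5.71-fold lower at Ct 26.3 and 28.5.

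The other members of the 20 lowest had log2 fold changes from -2.44 to -1.87. They were miR-184, miR-107, miR-532-5p, miR-98-5p, miR-361-5p, miR-186-3p, miR-1324, miR-99a-3p, miR-106b-5p, miR-33b-5p, miR-15a-5p, miR-103a-3p, miR-454-3p, miR-199b-5p and miR-219a-5p. Of these, miR-106b-5p had the highest level, with a Ct of 18.7 on the un-treated and 20.3 on the AGO2-sh72 array. miR-33b-5p, encoded within the span of SREBF1 and known to act on cholesterol export, went from Ct 28.6 to 30.2. Under Ct 30 on both arrays were 35 of the 48 miRNAs at least 3 fold lower, out of 223 miRNAs in all. Next to the 3 fold limit, miR-32-3p (-1.63), miR-374b-5p (-1.63) and miR-335-3p (-1.59) lay just inside and miR-199a-3p (-1.58), miR-20b-5p (-1.56) and miR-20a-5p (-1.55) just outside, closer together than the SD of the control wells. miR-520g-3p and miR-132-5p were at the cap on the AGO2-sh72 array alone and were at least 4.96-fold and at least 3.89-fold lower.

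The miRNAs at least 3 fold higher were few. miR-410-3p, one of many miRNAs of the imprinted cluster on chromosome 14, had a Ct of 31.1 on the un-treated and 26.9 on the AGO2-sh72 array, a 14.3-fold higher level (log2 fold change 3.84). Its level after AGO2-sh72 was the highest of the 12 arrays. miR-802 was undetermined without treatment and had a Ct of 32.1 with AGO2-sh72, so it was at least 5.73-fold higher. The other 4 were miR-191-3p (2.10, Ct 22.99 and 20.55), miR-181c-3p (2.00, Ct 28.6 and 26.3), miR-223-5p (1.87, Ct 33.998 and 31.8) and miR-22-5p (1.60, Ct 30.1 and 28.1). Each of these 4 is the less abundant arm of its hairpin. The largest increases short of 3 fold were those of miR-508-5p (1.55), miR-196b-5p (1.52) and miR-1180-3p (1.51).

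**Figure D2:**
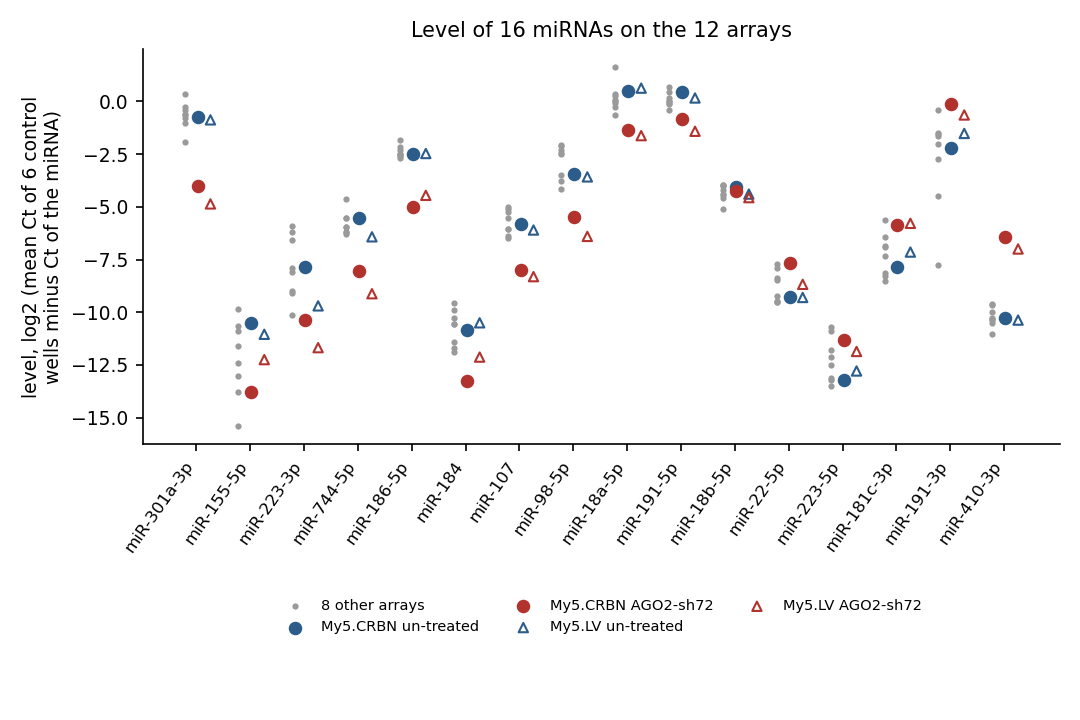
Level of 16 miRNAs, as the mean Ct of the 6 control wells minus the Ct of the miRNA (log2 scale), with 1 point per array. Filled circles are the My5.CRBN arrays without treatment (blue) and with AGO2-sh72 (red), open triangles the same for My5.LV, and grey points the 8 other arrays. The red circle of miR-301a-3p lies below all grey points and that of miR-410-3p above them, while the grey points of miR-155-5p cover both of its circles. miR-18a-5p and miR-18b-5p were added after their values were seen.

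Families were then compared, since their members can bind the same messages. There were 13 seed families with at least 3 assays, and 57 of their 60 assays had a fold change. Over these, 12 families had a median below 0 and 9 had every member below 0, beside 240 of 360 miRNAs in general. The let-7 family, known to restrain growth genes such as RAS and HMGA2, had 9 assays, all below 0, from -1.08 for let-7b-5p to -2.06 for miR-98-5p. Their median of -1.44 stood beside -1.19 for miRNAs of the same Ct classes. miR-98-5p had the highest Ct of the 9 (24.2 and 25.9) and a lower value than let-7f-5p (-1.53), which shares its gene cluster within the span of HUWE1 on the X chromosome.

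The family of miR-301a-3p had the lowest median of the 13 (-1.87, beside -1.19 for its Ct classes). Its 4 members ran from -3.25 for miR-301a-3p through miR-454-3p and miR-130a-3p (-1.84, named after its value was seen) to -1.17 for miR-130b-3p. The gap of miR-301a-3p to the next member is larger than the SD of the control wells. The oncogenic miR-17 family, which acts on cell cycle and cell death genes, had a median of -1.56 over 5 assays, which ran from -1.95 for miR-106b-5p to -1.53 for miR-17-5p. The other assay, miR-519d-3p, was at the cap on both arrays. The related miR-25, miR-32 and miR-92 family was more spread, from -1.82 for miR-32-5p to 0.40 for miR-363-3p, which had Ct values above 32.

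The miR-15 and miR-16 family, whose first members are lost with DLEU2 in many B cell leukemias and act on BCL2, had a median of -1.10. The members ran from miR-15a-5p at -1.92 (Ct 23.6 and 25.2) through miR-16-5p at -0.86 to miR-424-5p at -0.67. The 5 assays of miR-30 were close together, from -1.47 for miR-30c-5p to -0.94 for miR-30d-5p. Similarly, the 4 of miR-181, which acts in B and T cell development, lay between -1.28 for miR-181d-5p and -0.90 for miR-181c-5p. miR-29, known to act on MCL1 and DNA methyltransferases, lay above the -1.19 of its Ct class, with miR-29a-3p at -0.98, miR-29c-3p at -0.84 and miR-29b-3p at -0.62. In the miR-148 family, miR-148b-3p (-1.81) and miR-152-3p (-0.47) lay at the ends.

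The miR-99 and miR-100 family had 2 assays at least 3 fold lower, miR-99a-5p (-1.78) and miR-100-5p, and 1 above 0, miR-99b-5p (0.66), which was less abundant. The miR-200 family members with a common seed lay between -1.09 for miR-200c-3p and -0.94 for miR-200b-3p. The families with little expression in these cells gave no common direction. miR-302, miR-372, miR-373 and miR-520c, typical of embryonic stem cells, had Ct values of at least 28.8 in un-treated My5.LV cells and ran from -1.08 for miR-373-3p to at least 1.00 for miR-520c-3p, which was at the cap on the un-treated array. In the family of p53-induced miR-34, miR-449a was at -1.29, miR-34a-5p at 0.25 and miR-34c-5p at the cap on both arrays.

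**Figure D3:**
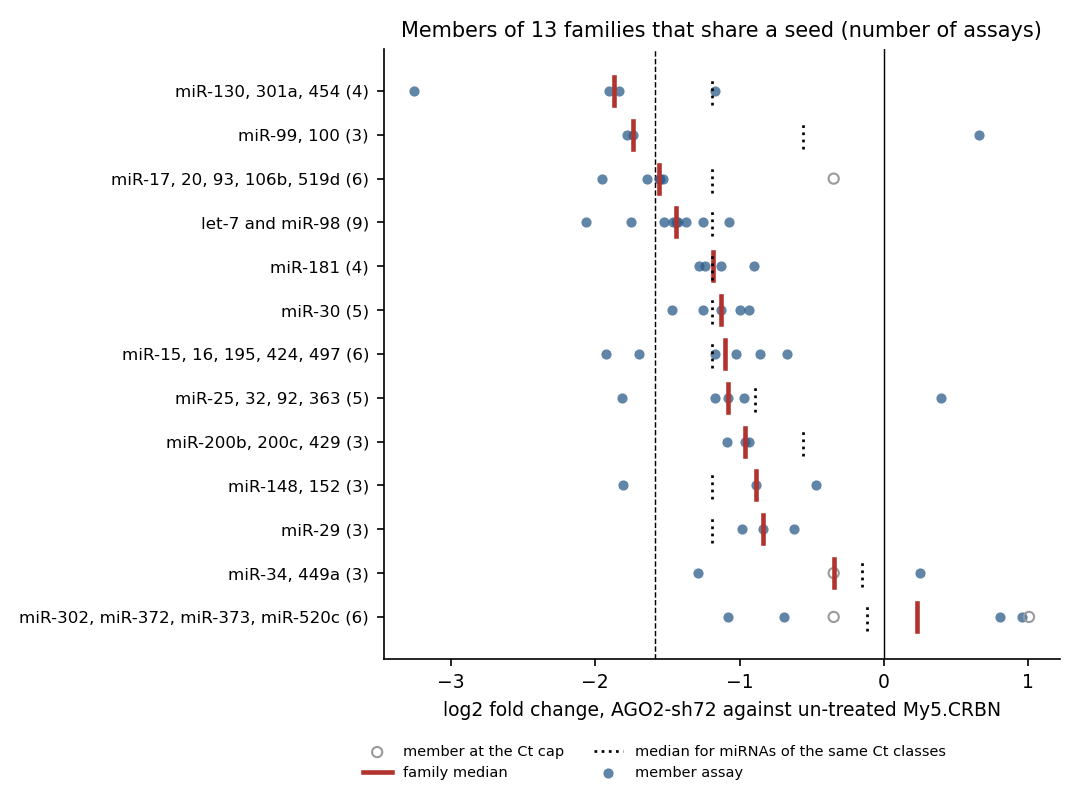
Log2 fold change between AGO2-sh72 treated and un-treated My5.CRBN cells (x axis) of each assay of the 13 families with at least 3 assays of the same seed, with the number of assays in parentheses. Red bars are family medians over all assays, those at the cap (open circles) included, dotted bars the median for miRNAs of the same Ct classes, and the dashed line marks 3 fold lower. All 9 points of the let-7 family lie left of 0, and the point of miR-301a-3p lies farthest left.

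Near-identical members give a view of how far single assays can differ. PCR assays of such members can pick up each other's product, so their values are uncertain as measures of a single miRNA. Over the 42 pairs of one family that differ at 1 or 2 bases, the median gap between their log2 fold changes was 0.26, and 6 pairs were at least 2 fold apart. Over the 97 pairs with 3 or more different bases the median gap was 0.45, with 27 pairs at least 2 fold apart. Both sets include pairs with an assay at the cap on both arrays, which has no fold change of its own. Examples are miR-302b-3p with miR-302c-3p (gap 0.34) and miR-519d-3p with miR-17-5p (gap 1.18). Such gaps rest on the cap, and how far the counts depend on them was not tested. miR-103a-3p (-1.91) and miR-107 (-2.16), which differ at 1 of 23 bases and come from introns of the PANK genes, lay within the SD of the control wells, as did miR-19a-3p (-1.64) and miR-19b-3p (-1.68). miR-18a-5p was at -1.82 (Ct 20.3 and 21.8) and miR-18b-5p at -0.18 (Ct 24.9 and 24.7). In like manner, miR-135b-5p was at -0.62 and miR-135a-5p at 1.24. The widest gap, 3.31, was that between miR-196a-5p (-1.79, Ct 27.0 and 28.5) and miR-196b-5p (1.52, Ct 31.7 and 29.9), both HOX cluster miRNAs. These pairs that lay apart were named after their values were seen, except for miR-196b-5p.

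Both arms of a hairpin start from the same precursor, so the 2 arms of each were set against one another. The array held both arms for 91 hairpins, and the arm with the earlier Ct in un-treated My5.LV cells is called the abundant arm, as judged by Ct alone since assay efficiencies differ. In 54 hairpins all 4 Ct values of the My5.CRBN arrays were under 32. Among these 54, the abundant arm had the lower log2 fold change in 45 (83.3%), with a median of -1.08 for the abundant and -0.30 for the other arm. The median difference within a hairpin was -0.52, and does not depend on the normalizer. It was -0.98 in the 35 hairpins whose arms were at least 3 cycles apart and -0.19 in the 19 with closer arms. Of 32 hairpins with an abundant 5p arm 29 had this order, as did 16 of 22 with an abundant 3p arm. Over the 85 of 92 pairs in which both arms have a fold change, low levels included, 63 had this order and the median difference was -0.49 (-0.34 over all 92).

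The widest difference among the 54 was that of miR-191, encoded within the span of DALRD3 (chr3:49020618-49020709, minus strand). Here miR-191-5p went from Ct 20.4 to 21.3 (-1.25) and miR-191-3p from 22.99 to 20.55 (2.10). On the AGO2-sh72 array the order of the 2 arms by Ct was thus reversed. miR-191-3p had its highest level of the 12 arrays there. Next was miR-181c on chromosome 19, with Ct 22.6 and 23.2 for the 5p arm (-0.90) and 28.6 and 26.3 for the 3p arm (2.00). miR-93 (-1.64 against 0.96 for miR-93-3p) and miR-425 (-1.16 against 0.82 for miR-425-3p) showed the same order. Likewise, miR-195-5p was at -1.02 beside 1.32 for miR-195-3p, and miR-200c-3p at -1.09 beside 1.07 for miR-200c-5p. Differences of at least 3 fold were found in 9 of the 54, the other 3 being miR-20b, miR-139 and miR-101, and in none the other way. The arms of these hairpins were named after their values were seen, where they are not among the largest differences.

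With low levels included, miR-223 had the widest difference, with miR-223-3p at -2.54 and miR-223-5p at 1.87, but miR-223-5p had a Ct of 33.998 on the un-treated array. The opposite order by at least 3 fold was found in 4 of the 92 pairs, miR-155, miR-132, miR-125a and miR-373, in each of which an arm had a Ct above 32 on an array. Among arms of equal Ct class the order was not uniform. From Ct 24 to 26 the median was -1.13 for 16 abundant and -0.78 for 9 other arms, while from Ct 26 to 28 it was 0.11 for 9 abundant and -0.57 for 13 other arms. Ct class and arm thus overlap, and their parts were not separated. Among all 372 miRNAs, the less abundant arms had 4 of 92 at least 3 fold higher, the abundant arms 0 of 91, and the miRNAs with a single arm on the array 2 of 189, beside 1.61% of all miRNAs.

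**Figure D4:**
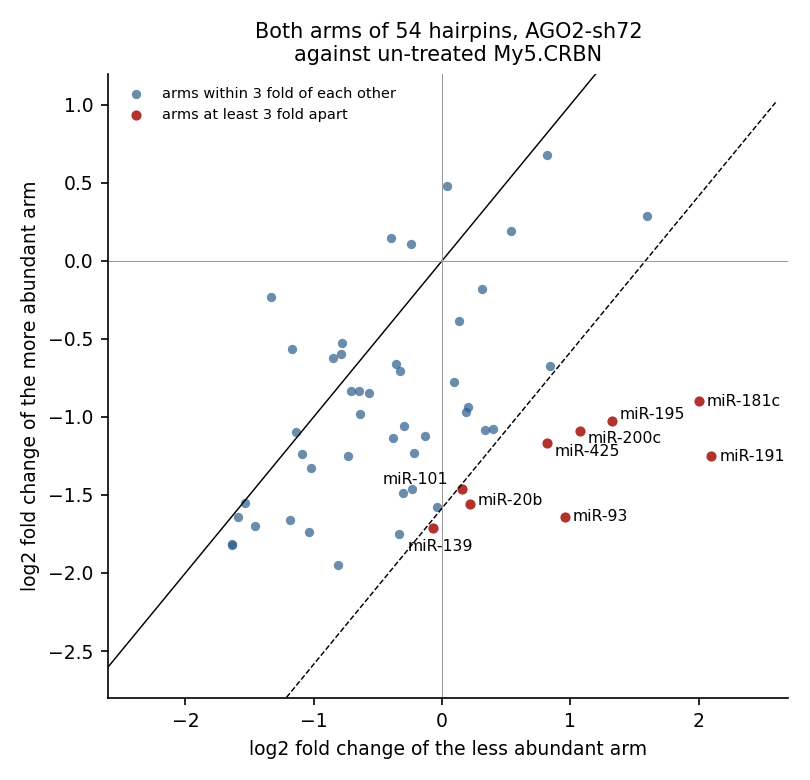
Log2 fold change between AGO2-sh72 treated and un-treated My5.CRBN cells of the less abundant arm (x axis) and of the abundant arm (y axis). Points are the 54 hairpins with all Ct values under 32. The solid line marks equal change and the dashed line an abundant arm lower by 3 fold. Red points are hairpins with arms at least 3 fold apart. Of the points, 45 lie below the solid line, with miR-191 and miR-181c farthest from it.

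Genomic clusters were also compared, where hairpins within 10 kb on the same strand are taken as one and only assays with a RefSeq match enter. The miR-17-92 cluster on chromosome 13 (chr13:91350605-91351391, plus strand), which is driven by MYC and acts as an oncogene in lymphoma, had 10 assays with a median of -1.54, 9 of them below 0, beside -1.19 for their Ct classes. Within it miR-18a-5p was lowest (-1.82), followed by miR-19b-3p, which is also encoded on the X chromosome, and miR-92a-3p was higher (-0.97). Its paralog on the X chromosome (chrX:134169378-134170111, minus strand) had 8 assays around a median of 0.02, 4 of them below 0, beside -0.52 for their Ct classes, as these assays had higher Ct values (median 26.7 against 19.4 in un-treated My5.LV). The difference between the clusters was not tested. miR-19b-3p and miR-92a-3p belong to both. On chromosome 7, the 5 assays of miR-183, miR-96 and miR-182 had a median of -1.48, beside -0.89 for their Ct classes, and all were below 0. The 6 assays of miR-106b, miR-93 and miR-25, within the span of MCM7, ran from -1.95 to 0.96.

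In contrast, the imprinted miRNAs of chromosome 14 (chr14:101022066-101065991, plus strand) had no common direction, with 7 of the 18 assays that have a fold change below 0 and a median of 0.26, beside 0.00 for their Ct classes. miR-410-3p was the only one of the 18 that was at least 3 fold higher, and 1 was at least 3 fold lower. Thus the large increase of miR-410-3p was not shared by its cluster. miR-221 and miR-222, which act on CDKN1B and are encoded side by side on the X chromosome, were above 0 in the 3 of their assays that have a fold change, and miR-221-5p was at the cap on both arrays. miR-221-3p went from Ct 30.9 to 29.3 (1.16) and miR-222-3p from 29.6 to 28.6 (0.68). miR-222-5p was at 0.94.

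Features of the mature sequence were compared over the 330 miRNAs with a sequence. Of the 44 miRNAs at least 3 fold lower that have one, 25 (56.8%) begin with U, as do 144 of all 330 (43.6%), while none of the 6 higher miRNAs does. The median log2 fold change was -0.85 for miRNAs that begin with U and -0.28 for those with A. Within the abundant Ct classes the difference varied. The medians were -1.30 for U and -1.09 for A under Ct 22 and -1.24 for both from Ct 22 to 24. They were -1.07 for U and -0.57 for A from Ct 24 to 26. These classes held only 8, 6 and 9 miRNAs that begin with A. G+C content had a median of 40.9% in the lower set, of 40.9% in the 6 higher miRNAs as well and of 47.6% overall. Across miRNAs, Spearman's rho between G+C content and log2 fold change was 0.25 (n = 330). It was 0.44 from Ct 24 to 26 and 0.40 from 26 to 28, but -0.31 from 32 to 35. These miRNAs share 2 arrays, seeds and base composition and are not independent, so no p is given, and amplification also depends on base composition, the part of which was not tested.

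The identity of the cells was checked with miRNAs typical of cell types. All 7 blood and B cell miRNAs were under Ct 35 on both arrays, with miR-142-3p, which is restricted to blood cells, at Ct 16.9 and 17.6. Their summed level relative to the control wells was 22.3 on the un-treated and 11.2 on the AGO2-sh72 array, within the range of 9.14 to 89.9 of the 10 other arrays. All 7 were below 0, with a median of -1.10. Among markers of other cells, miR-144-3p of red cells was at the cap on both arrays, whereas miR-451a, the other red cell miRNA, was found at Ct 30.39 and 30.41. miR-122-5p of liver was at the cap without treatment and near it with AGO2-sh72 (34.5), and all 4 muscle and all 5 epithelial assays were under Ct 35. miR-1 had a Ct of 20.9 and 21.98 and miR-9-5p, a neuronal miRNA, of 24.1 and 25.5. The summed level of the 4 muscle assays was 1.01 and 0.429, in the range of 0.137 to 1.17 of the other arrays. The summed level of the 5 epithelial assays was 0.0418 and 0.0232, the latter below the lowest of the other arrays (0.0292), and all 5 were below 0. The sums of the other lists lay within the range of the other arrays. The part of these markers in the results was not tested, and in a bulk sample fewer cells of a type and less RNA per cell cannot be told apart.

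miRNAs of interest in myeloma or in relation to AGO2 were followed as well. miR-451a, the miRNA that AGO2 itself matures without Dicer, had Ct values of 30.39 and 30.41 and a log2 fold change of -0.38, near the SD of the control wells. In My5.LV cells its value was -1.91. miR-720, which stems from a tRNA and not from a miRNA hairpin, was abundant (Ct 16.4 and 17.7) and had a log2 fold change of -1.66 in My5.CRBN but 0.65 in My5.LV cells. miR-21-5p, a survival factor of myeloma cells that is induced by IL-6, was at -0.78 (Ct 18.8 and 19.2). miR-125b-5p was at -1.34. Summed over all assays with equal weight per cycle, the level after AGO2-sh72 was 43.1% of that without treatment in My5.CRBN and 48.3% in My5.LV cells. This sum rests on few assays, as the 10 highest held 59.9% of it in un-treated My5.CRBN cells. It includes miR-720, which was lower in My5.CRBN and higher in My5.LV cells, and was not computed without it. The 2 lines had the other order by the median log2 fold change of all miRNAs, -0.52 in My5.CRBN and -0.79 in My5.LV cells.

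The same comparison in My5.LV cells shares no array with that in My5.CRBN cells, and there 88 miRNAs (23.7%) lay below and 7 (1.88%) above the 3 fold limits. Values below 0 were common in My5.LV cells, where the median over all miRNAs was -0.79. Among the 48 lower miRNAs of My5.CRBN cells, 37 passed the same limit in both lines, beside the 23.7% of all miRNAs. Of these 48, 47 had a value below 0 in My5.LV cells and 45 of at most -1. How much of this overlap goes with the generally lower values of My5.LV cells was not tested. The other 3 were miR-720, the one with the opposite sign, miR-520g-3p, which was at the cap on the AGO2-sh72 array of My5.CRBN, and miR-99a-3p. miR-99a-3p was at -1.98 in My5.CRBN (Ct 31.6 and 33.3) and at -0.14 in My5.LV cells. miR-301a-3p was at -3.99, miR-744-5p at -2.70 and miR-107 at -2.21 in My5.LV cells. By contrast, miR-155-5p had -1.20 there, a difference from My5.CRBN larger than the SD of the control wells, and its value in My5.CRBN rests on a single well at Ct 34.2. Of the higher miRNAs, miR-410-3p passed 3 fold in My5.LV cells too (3.37), and miR-181c-3p passed 2 fold (1.36). miR-191-3p (0.87), miR-223-5p (0.93) and miR-22-5p (0.62) had positive values short of 2 fold, and miR-802 was at the cap on both My5.LV arrays. At least 2 fold in opposite directions were 4 miRNAs, of which miR-337-5p, miR-363-5p and miR-583 had Ct values above 32 on both My5.CRBN arrays, and the other was miR-196b-5p (1.52 and -1.21). With 1 array per condition, no difference between the cell lines was tested.

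**Figure D5:**
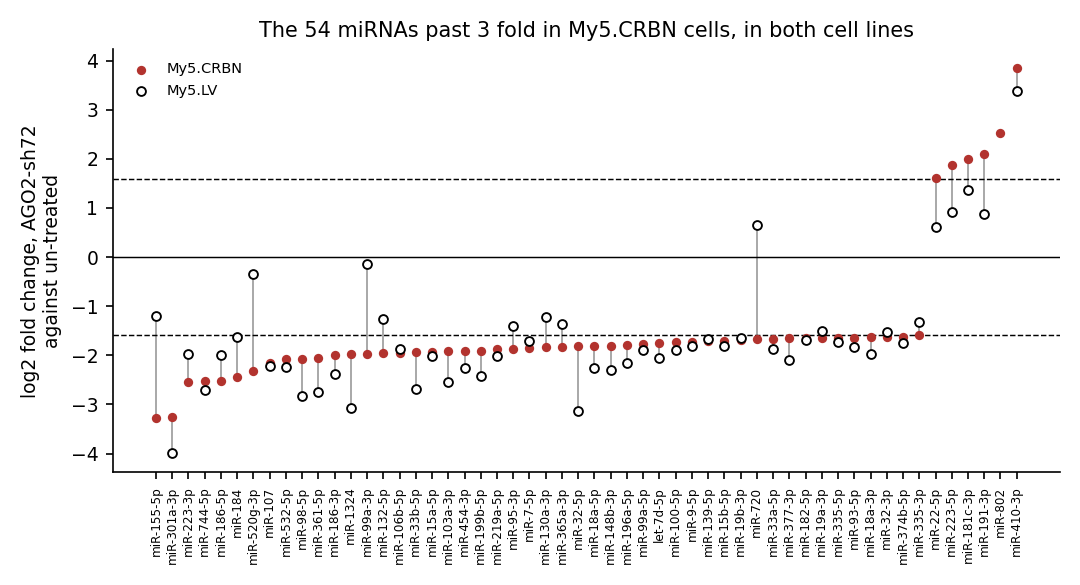
Log2 fold change after AGO2-sh72 (y axis) of the 48 lower and 6 higher miRNAs of My5.CRBN cells, with 3 fold marked by dashed lines. The miRNAs are ordered along the x axis by their value in My5.CRBN cells. Red points are My5.CRBN and open circles My5.LV cells, left out where both My5.LV arrays were at the cap. Among the lower miRNAs, miR-720 alone has its open circle above 0, and miR-410-3p has both points above the upper dashed line.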

How the data were processed

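Total RNA of 12 OCI-My5 derived samples was run by the authors on a 384-well SYBR Green miRNA PCR array with 372 miRNA assays, and the deposited table holds 1 Ct value per well and array, not normalized. The platform software gave the Ct. Its threshold and version are not given in the sources used here. A second deposited file holds linear ratios of 11 arrays to un-treated My5.LV, computed by the authors, and was not used. There are no read counts. Precision is limited by 1 array per condition, and a Ct near 35 stands for few molecules.

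Samples were grouped by their titles. Ct above 35 or undetermined was set to 35, the mean of the wells for RNU6-2, SNORD61, SNORD68, SNORD72, SNORD95 and SNORD96A was taken off, and differences of at least 3 fold were counted. At the cap on 1 array, a fold is a bound. Named miRNAs were the 20 lowest and the 8 highest values, ends of families, cell type markers and a list tied to myeloma and AGO2, and other members of families, hairpins and clusters were named after their values were seen. Members and lists were chosen with earlier results of these data known. Family, position and sequence came from RefSeq (GRCh38.p14), with 11 assays without a sequence placed in families by name. Alternatives were other normalizers, a cap of 32, Ct filters and other classes. The positive PCR control as normalizer and un-treated My5.LV as control were chosen after seeing the data. Scripts were tested on simulated data and used Matplotlib 3.10.9, SciPy 1.17.1, pandas 2.3.3 and NumPy 2.4.6 in Python 3.11.15.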

Additional observations from a re-analysis of the deposited data

Results flagged for a closer look

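miR-196b-5p went in opposite directions in the 2 cell lines, with a log2 fold change after AGO2-sh72 of 1.52 in My5.CRBN and -1.21 in My5.LV cells, a difference of 2.72 that was not tested. The assay of cel-miR-39-3p, a miRNA of C. elegans for which no spike-in is described, gave a Ct in both of its wells, 34.8 and 33.0 on the un-treated and 34.8 and 33.2 on the AGO2-sh72 array of My5.CRBN. What these wells measured was not tested.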

How the results depend on the processing

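No paired analysis was possible because there was 1 array per condition. Normalized to the global mean, the miRNAs past 3 fold were 8 lower and 24 higher ones, around a median log2 fold change of 0.0244, since every value moved by 0.55, and medians of the miR-34 family (0.20), of the class at the cap (0.20) and of 3p arms (0.0772) turned sign. With RNU6 alone there were 104 lower and 3 higher (median -0.97), with the reverse transcription control 93 lower (median -0.90), and with the positive PCR control 102 lower and 3 higher (median -0.95). With the 5 SNORD wells there were 37 lower and 9 higher. When miRNAs without a Ct under 30 were left out, the median was -0.84. With a cap of 32, miR-223-5p (-0.12) and miR-802 (-0.35) turned sign, and without miRNAs at the cap on an array the class at the cap in un-treated My5.LV did (0.39). Against un-treated My5.LV cells, 56 were lower and 9 higher. The difference between abundant and rare miRNAs and that between arms cannot change with the normalizer. Both kept their sign under the cap of 32 and the Ct filters, as did the former with the other classes. Neither was computed against un-treated My5.LV cells. The spread of fold changes above Ct 32 was not measured, which limits what can be said of low miRNAs.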
